A study of Rattus norvegicus with 24 samples.

Results

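Ion channel genes were followed in cumulus-oocyte complexes (COCs) of rats given a stepwise hormone treatment. A probe was a member when its gene symbol begins with Kcn, Cacn, Scn or Clcn, or with Trp followed by c, m or v. The rule found 136 genes, measured by 140 of the 22226 probes, and used no measured value. The members are potassium channel subunits and their partners, voltage-gated calcium channel subunits, sodium channel subunits, CLC chloride channels and exchangers, and TRP cation channels. Of these probes, 139 have a detection score, 23 probes for 23 genes were detected on at least 4 of the 24 arrays and were tested, 6 were detected on 1 to 3 arrays, and 110 were detected on 0 arrays. Of the genes tested, Scnm1 and Trpc4ap are members by symbol only: Scnm1 is a splicing protein named for its effect on a sodium channel transcript, and Trpc4ap binds a TRP channel. Kcnrg, a regulator of potassium channels with no pore of its own, was not detected.

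Each array held RNA from the COCs of 1 sexually mature female Sprague Dawley rat, so a replicate is a rat. There were 6 rats given GnRH, equine chorionic gonadotropin (eCG) and human chorionic gonadotropin (hCG), called the hCG group below, 6 given GnRH and eCG (GnRH+eCG), 6 given GnRH alone, and 6 untreated controls. GnRH is the hypothalamic releasing hormone of the gonadotropins, eCG acts on follicles much as follicle-stimulating hormone does, and hCG acts through the luteinizing hormone receptor and triggers ovulation. The sources used here give neither doses nor the interval between hormone and collection. RNA was amplified before labelling, per the labels. A COC is an oocyte with the cumulus granulosa cells around it, so the values mix both cell types, and fewer cells of a type and less RNA per cell cannot be told apart.

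Ion channels are pores that let particular ions cross a membrane. Potassium channels set the resting potential, calcium channels and many TRP channels admit calcium as a signal, and CLC proteins move chloride across the plasma membrane and across membranes of endosomes. In the COC, cumulus cells and the oocyte are coupled by gap junctions, through which ions and small signal molecules pass.

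Promoters are printed for the 4 channel genes of smallest p in the hCG group against control, Kcnk2 and Kcnj13, which were lower in the hCG group, and Cacna2d1 and Trpv4, which were higher, so that the start of each gene can be read beside its values. Each is the 250 bases before the first RefSeq start listed for the gene in assembly GRCr8, read 5′ to 3′ on the strand of the gene. Capitals mark TGACG, the cAMP response element half-site, on either strand, so that CGTCA marks it on the opposite strand. The table lists 2 starts for Kcnk2 and 3 for Cacna2d1. The Kcnk2 window is chr13:103438643-103438892 on the minus strand, the Kcnj13 window chr9:95518987-95519236 on the minus strand, the Cacna2d1 window chr4:20330148-20330397 on the minus strand, and the Trpv4 window chr12:47598938-47599187 on the plus strand.
Kcnk2: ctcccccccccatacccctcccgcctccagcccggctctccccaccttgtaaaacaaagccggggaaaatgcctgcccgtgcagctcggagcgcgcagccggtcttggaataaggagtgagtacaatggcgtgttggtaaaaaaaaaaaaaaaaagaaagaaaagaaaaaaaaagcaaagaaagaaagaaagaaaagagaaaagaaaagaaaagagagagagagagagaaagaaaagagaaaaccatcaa
Kcnj13: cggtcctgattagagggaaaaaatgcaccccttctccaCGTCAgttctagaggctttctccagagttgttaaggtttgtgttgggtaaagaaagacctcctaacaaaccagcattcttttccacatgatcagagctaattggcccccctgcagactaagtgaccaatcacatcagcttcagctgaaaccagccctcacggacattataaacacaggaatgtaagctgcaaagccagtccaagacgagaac
Cacna2d1: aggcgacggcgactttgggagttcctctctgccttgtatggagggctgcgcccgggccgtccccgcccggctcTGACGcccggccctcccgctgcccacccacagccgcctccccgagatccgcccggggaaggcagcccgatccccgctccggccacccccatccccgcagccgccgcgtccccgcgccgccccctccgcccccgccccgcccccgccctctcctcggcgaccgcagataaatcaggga
Trpv4: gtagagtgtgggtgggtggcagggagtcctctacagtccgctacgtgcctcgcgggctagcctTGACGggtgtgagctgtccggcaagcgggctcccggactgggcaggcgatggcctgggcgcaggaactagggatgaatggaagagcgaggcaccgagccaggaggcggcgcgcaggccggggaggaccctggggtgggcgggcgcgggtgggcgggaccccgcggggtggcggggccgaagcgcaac
The half-site begins at base -212 before the Kcnj13 start, at -177 before the Cacna2d1 start and at -187 before the Trpv4 start. The Kcnk2 window held no match and is rich in A and G in the bases next to the start.

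A promoter was matched for 18 of the 23 genes tested. Matches were counted on both strands, and a match is a description of letters and not a site in use. Channel counts are by gene, and the shares of all are by promoter. A gene can have several listed starts, so count and share differ in unit and are not compared closely. TGACG stood in 7 of the 18, against 18.2% of 33469 rat promoters of the same length. The 7 were those of Cacna2d1, Trpv4, Kcnj13, Kcnab1, Clcn3, Trpc4ap and Trpv6, which include genes that were higher, lower and without a call in the hCG group. In Cacna2d1 and Clcn3, TGACG stood before the first listed start and not before any other start listed. AGGTCA, a nuclear receptor half-site, stood in 2 (Kcnh1 and Trpv6; 14.1% of all), and TGTGGT, the core bound by Runx factors, in 4 (Kcns3, Kcna4, Scn2b and Trpv2; 14.5% of all). ACANNNTGT, the progesterone receptor half-sites with their spacer, stood in 0 of the 18 and in 5.81% of all. No motif contains another.

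**Figure D1:**
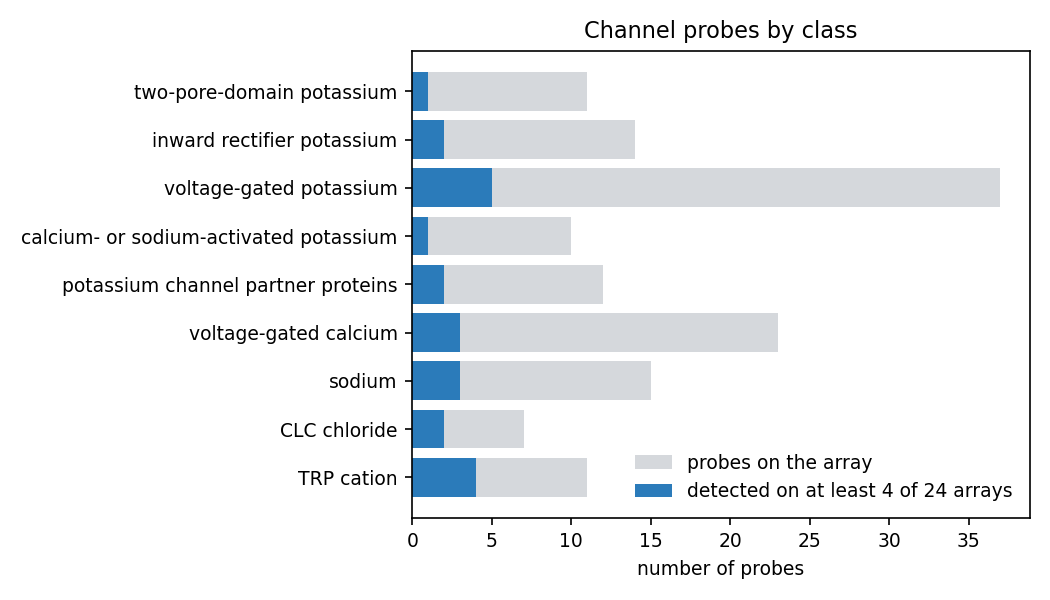
Number of channel probes on the array in each class (grey) and number detected on at least 4 of the 24 arrays (blue). Voltage-gated potassium channels have the most probes, 37, of which 5 were detected on at least 4 arrays.

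Most channel genes gave no detected signal in COCs. Detected means a score over 0.99, which is a detection p under 0.01 for signal above the background of the array. The 23 tested are 16.4% of the channel probes, against 37.5% of all probes of the array. By class, 1 of 11 probes for potassium channels with a pair of pore domains was tested, 2 of 14 for inward rectifiers, 5 of 37 for voltage-gated potassium channels, 1 of 10 for calcium- or sodium-activated potassium channels and 2 of 12 for potassium channel partner proteins. Another 3 of 23 probes were tested for voltage-gated calcium channels, 3 of 15 for sodium channels, 2 of 7 for CLC proteins and 4 of 11 for TRP channels. Of the pore-forming subunits of voltage-gated calcium channels, Cacna1a, Cacna1b, Cacna1c, Cacna1d, Cacna1e and Cacna1h were detected on 0 arrays and Cacna1g, a T-type pore, on 8. No pore-forming subunit of a voltage-gated sodium channel was detected on any array. Kcnma1, the pore of the large-conductance calcium-activated potassium channel, was detected on 0 arrays, while the probe of its accessory subunit Kcnmb2 was detected on 22.

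Just inside the detection minimum were Trpv2, a calcium-permeable TRP channel, detected on 7 arrays with log2 signals of 6.49 to 8.66, and Cacna1g, detected on 8 arrays with 6.25 to 7.83. Just outside it were Kcnj9, an inward rectifier gated by G proteins, with 6.32 to 7.23, and Kcnk1, a weak inward rectifier, with 5.45 to 7.87, each detected on 2 arrays. Kcnk15, Kcnab3, Kcna2 and Kcnj8 were detected on 1 array each. Both Kcnk1 detections were in control rats.

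The number of channel probes detected on an array was 9 to 19 in the hCG group (median 13.5), 15 to 22 in GnRH+eCG (median 18.0), 14 to 22 in GnRH (median 17.5) and 12 to 24 in control (median 19.0). The groups overlap, with the lowest count and the lowest median in the hCG group. Over all probes, 25.1% to 37.8% were detected on an array. Median signal before normalization ran between 176.7 and 235.4 for rats 1 to 12, and between 140.5 and 180.0 for rats 13 to 24. Every group has 3 rats in each of those sets. Within the GnRH group, rats 5 and 16 stood apart from the other 4 on the first principal component of all tested probes (scores 20.3 to 22.4, against -32.9 to -20.3), so results without them are given where they change. The hCG group lay at 46.4 to 57.9 on it, GnRH+eCG at -25.5 to 4.5 and control at -38.8 to -19.6.

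**Figure D2:**
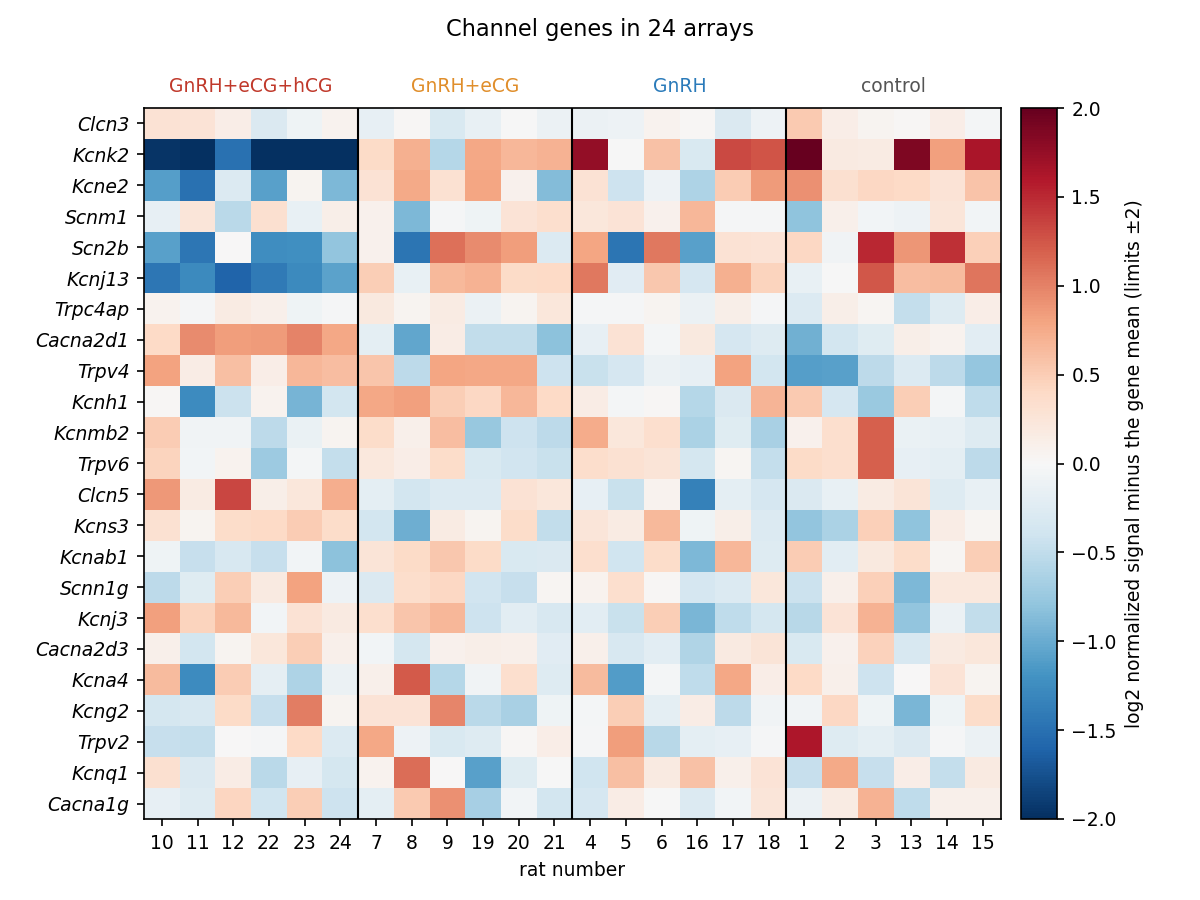
Log2 normalized signal of the 23 channel genes (rows, in order of mean signal) in each rat (columns, by group), as the difference from the mean of the gene over 24 arrays. Kcnk2 and Kcnj13 are below their mean in all 6 rats of the hCG group and Cacna2d1 is above its mean in all 6.

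The comparison of the hCG group with GnRH+eCG asks what the ovulation trigger adds to follicle stimulation. Of the 23 channel genes, 7 passed an adjusted p of 0.05 in limma: Cacna2d1 and Clcn5 rose, and Kcnk2, Kcnj13, Scn2b, Kcnh1 and Kcne2 fell. That is 30.4% of the channel genes, against 40.1% of the 8343 probes tested, of which 17.6% were higher and 22.6% lower. The median log2 difference was -0.06 for the channel genes and -0.04 for all probes tested. In 4 of the 7 genes, Cacna2d1 above and Kcnk2, Kcnj13 and Kcnh1 below, the 6 values of the hCG group lay wholly on one side of the 6 GnRH+eCG values. The same held for 20.9% of all probes tested, 9.98% above and 10.9% below.

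Set against untreated control, the hCG group had 9 of 23 channel genes past the threshold, or 39.1%, against 51.8% of all probes tested (24.4% higher and 27.5% lower). Cacna2d1, Trpv4, Clcn5 and Kcns3 rose, and Kcnk2, Kcnj13, Scn2b, Kcne2 and Kcnab1 fell. The median log2 difference was -0.09 for the channel genes and -0.04 for all probes tested. Ranges were wholly apart for Cacna2d1 and Trpv4 above and for Kcnk2, Kcnj13 and Kcne2 below, and for 25.8% of all probes tested, 13.4% above and 12.4% below. With rats 1 to 12 and rats 13 to 24 as a block there were 10 calls against control, with Kcnj3 added as higher. That is 43.5% of the channel genes, against 52.9% of all probes tested. Both comparisons use the same 6 hCG arrays, so their values for a gene are set side by side below and are not separate evidence.

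**Figure D3:**
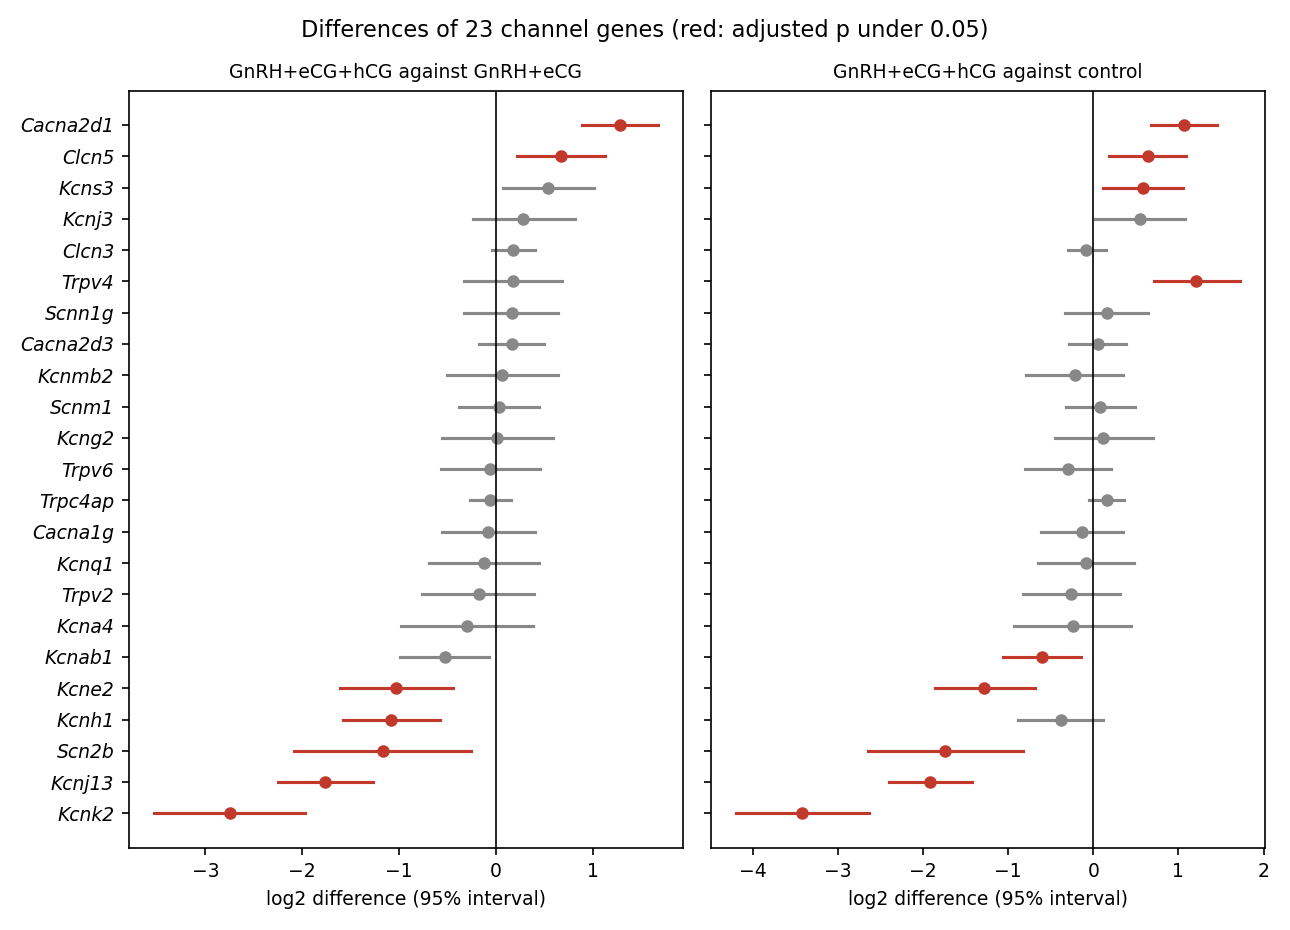
Log2 difference of each of the 23 channel genes with its 95% interval, for the hCG group against GnRH+eCG (left) and against control (right), with red for an adjusted p under 0.05. Kcnk2 has the lowest estimate in both, -2.75 and -3.42, and most grey intervals lie between -1 and 1.

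Among potassium channels with a pair of pore domains, Kcnk2 was the one tested. It encodes TREK, a leak channel opened by membrane stretch and lipids and closed by phosphorylation through cAMP-dependent protein kinase. Log2 signal (lowest, median and highest of 6 rats) was 5.50, 6.10 and 6.94 in the hCG group, 7.85, 9.10 and 9.20 in GnRH+eCG, 8.12, 9.35 and 10.18 in GnRH, and 8.59, 9.65 and 10.41 in control. Every rat of the hCG group was below every other rat, and Kcnk2 was detected in 0 of 6 rats of the hCG group and in all 18 others. The Kcnk2 log2 difference was -2.75 ± 0.38 (SE; adjusted p = 8.22e-06) against GnRH+eCG and -3.42 ± 0.38 (adjusted p = 2.81e-07) against control. Because the hCG group was not detected, its level there is a bound, and Kcnk2 was at least 3.16-fold lower than in GnRH+eCG and at least 5.01-fold lower than in control. This bound sets the mean of the brighter group against a mean over hCG arrays of the lowest detected signal on each. It holds for background-corrected signal: with quantile normalization and no background correction the log2 difference was -1.67 (3.18-fold) against GnRH+eCG and -2.24 (4.72-fold) against control, both still past the threshold. Kcnk2 passed the detection minimum only through the groups in which it was high.

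Of the inward rectifiers, Kcnj13 behaved in the same way and Kcnj3 did not pass the threshold. Kcnj13 encodes a small-conductance inward rectifier known from ion-transporting epithelia. Its log2 signal (lowest, median and highest) was 6.39, 6.64 and 6.92 in the hCG group, 7.85, 8.43 and 8.68 in GnRH+eCG, 7.66, 8.48 and 9.05 in GnRH, and 7.85, 8.62 and 9.23 in control. Again no rat of the hCG group reached any other rat, and the gene was detected in 0 of 6 there and in all 18 others, through which it passed the detection minimum. The Kcnj13 log2 difference was -1.76 ± 0.24 (SE; adjusted p = 6.04e-06) against GnRH+eCG, at least 2.29-fold lower, and -1.92 ± 0.24 (adjusted p = 1.09e-06) against control, at least 2.55-fold lower. Without background correction it was -1.05 (2.07-fold) against GnRH+eCG and -1.18 (2.27-fold) against control, below those bounds and past the threshold. Kcnj3, a subunit of the G-protein-gated inward rectifier, had a log2 difference of 0.28 ± 0.26 (adjusted p = 0.406) against GnRH+eCG and 0.55 ± 0.26 (adjusted p = 0.0753) against control, and was detected in 4 of 6 rats of the hCG group, 4 of GnRH+eCG, 1 of GnRH and 2 of control. With rats 1 to 12 and rats 13 to 24 as a block, Kcnj3 passed the threshold against control (adjusted p = 0.0154), as it did within rats 13 to 24 (0.61, adjusted p = 0.0325).

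The voltage-gated potassium channels tested were Kcnh1, Kcns3, Kcna4, Kcng2 and Kcnq1. Kcnh1, the ether-à-go-go channel, had log2 signals (lowest, median and highest) of 6.48, 7.35 and 7.82 in the hCG group, 8.14, 8.32 and 8.57 in GnRH+eCG, 7.17, 7.74 and 8.42 in GnRH, and 7.00, 7.55 and 8.27 in control. The hCG group lay wholly below GnRH+eCG and overlapped control. Its log2 difference was -1.08 ± 0.24 (SE; adjusted p = 0.00128), 2.11-fold lower, against GnRH+eCG, and -0.38 ± 0.24 (adjusted p = 0.195) against control. Kcnh1 was detected in 3 of 6 rats of the hCG group, so the hCG mean is partly of signals not above background. Within rats 13 to 24, with 3 rats a group, the difference from GnRH+eCG was -0.90 (adjusted p = 0.0955). GnRH+eCG had the highest mean of the groups for Kcnh1, 8.34 ± 0.19 (SD, n = 6), with all 6 rats detected.

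Kcns3 encodes a subunit that forms no channel alone and changes the gating of its pore-forming partners. Log2 signal was 7.62, 7.93 and 8.06 in the hCG group, 6.58, 7.40 and 7.93 in GnRH+eCG, 7.28, 7.70 and 8.20 in GnRH, and 6.76, 7.26 and 8.04 in control. The ranges overlap, with the narrowest spread in the hCG group (SD 0.15). The log2 difference was 0.54 ± 0.23 (SE; adjusted p = 0.0616) against GnRH+eCG and 0.59 ± 0.23 (adjusted p = 0.0325), 1.51-fold higher, against control. That call was lost when hCG rat 12, 22, 23 or 24 or control rat 1, 2 or 13 was left out (adjusted p up to 0.087), under median scaling (log2 difference 0.23, adjusted p = 0.154) and with no detection minimum (adjusted p = 0.0607). It was 0.56 (adjusted p = 0.271) within rats 1 to 12 and 0.62 (adjusted p = 0.0853) within rats 13 to 24. Kcna4, an A-type channel, Kcng2, a silent modifier subunit, and Kcnq1, which carries slow or constitutive potassium currents depending on its partners, did not pass: their log2 differences were -0.30 ± 0.33, 0.01 ± 0.28 and -0.12 ± 0.27 (SE) against GnRH+eCG, with each adjusted p at or above 0.506.

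Partner proteins of potassium channels were represented by Kcne2 and Kcnab1. Kcne2 is a single-span membrane subunit that joins Kcnq1 and other pores. Its log2 signal was 6.87, 7.36 and 8.41 in the hCG group, 7.48, 8.65 and 9.15 in GnRH+eCG, 7.74, 8.45 and 9.20 in GnRH, and 8.63, 8.76 and 9.27 in control. The hCG group lay wholly below control and overlapped GnRH+eCG. The log2 difference was -1.03 ± 0.28 (SE; adjusted p = 0.0061), 2.04-fold lower, against GnRH+eCG, and -1.28 ± 0.28 (adjusted p = 0.000681), 2.43-fold lower, against control. Within rats 13 to 24, with 3 rats a group, the difference was -0.65 (adjusted p = 0.344) against GnRH+eCG and -1.06 (adjusted p = 0.0919) against control.

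Kcnab1 is a cytoplasmic subunit that speeds inactivation of some voltage-gated potassium channels. Log2 signal was 6.63, 7.05 and 7.39 in the hCG group, 7.14, 7.77 and 7.98 in GnRH+eCG, 6.55, 7.48 and 8.11 in GnRH, and 7.24, 7.72 and 7.95 in control. It was detected in 1 of 6 rats of the hCG group, 6 of GnRH+eCG, 5 of GnRH and 5 of control, and the hCG and control ranges overlap at their edges. The log2 difference was -0.53 ± 0.22 (SE; adjusted p = 0.0588) against GnRH+eCG and -0.60 ± 0.22 (adjusted p = 0.0257), 1.52-fold lower, against control. Leaving out hCG rat 24, control rat 1 or control rat 15 ended that call (adjusted p up to 0.0674), and the difference was -0.46 (adjusted p = 0.195) within rats 1 to 12 and -0.75 (adjusted p = 0.119) within rats 13 to 24. Against GnRH+eCG, Kcnab1 passed the threshold without GnRH rats 5 and 16 together (adjusted p = 0.0225). It also passed with GnRH rat 16 or 17, GnRH+eCG rat 20 or 21, or hCG rat 23 left out alone (adjusted p up to 0.0495). Kcnmb2, the accessory subunit of the large-conductance calcium-activated channel, had a log2 difference of 0.06 ± 0.28 against GnRH+eCG and -0.22 ± 0.28 against control (SE; adjusted p = 0.879 and 0.525).

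Voltage-gated calcium channels were represented mainly by accessory subunits. Cacna2d1, the alpha2delta subunit that brings calcium channel pores to the membrane and binds gabapentin, had log2 signals of 8.24, 8.68 and 8.84 in the hCG group, 6.81, 7.35 and 8.00 in GnRH+eCG, 7.51, 7.74 and 8.14 in GnRH, and 6.88, 7.61 and 7.96 in control. All 6 rats of the hCG group lay above every other rat. The Cacna2d1 log2 difference was 1.28 ± 0.19 (SE; adjusted p = 1.76e-05), 2.43-fold higher, against GnRH+eCG, and 1.07 ± 0.19 (adjusted p = 6.62e-05), 2.10-fold higher, against control. Cacna2d3, of the same subunit family, had a log2 difference of 0.16 ± 0.16 (adjusted p = 0.473) against GnRH+eCG, and Cacna1g one of -0.08 ± 0.23 (adjusted p = 0.819).

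Of the sodium channel family, Scn2b and Scnn1g were tested beside Scnm1. Scn2b is an accessory subunit of voltage-gated sodium channels with an immunoglobulin fold. Its log2 signal was 6.77, 7.05 and 8.22 in the hCG group, 6.74, 8.67 and 9.31 in GnRH+eCG, 6.74, 8.49 and 9.26 in GnRH, and 8.14, 8.89 and 9.72 in control. It was detected in 2 of 6 rats of the hCG group, 5 of GnRH+eCG, 5 of GnRH and 6 of control, so the hCG mean is mostly of signals not above background. The hCG group was low in most rats, but GnRH+eCG rat 8 and GnRH rat 5 were as low, and hCG rat 12 reached into the control range. The Scn2b log2 difference was -1.17 ± 0.44 (SE; adjusted p = 0.0382), 2.25-fold lower, against GnRH+eCG, and -1.74 ± 0.44 (adjusted p = 0.00222), 3.34-fold lower, against control. Against GnRH+eCG the call was lost when GnRH+eCG rat 7, 9, 19 or 20 or hCG rat 10, 11, 22, 23 or 24 was left out (adjusted p up to 0.0928) and with no detection minimum (adjusted p = 0.0821). Within rats 1 to 12 it was -0.74 (adjusted p = 0.546) against GnRH+eCG and -1.45 (adjusted p = 0.196) against control. Scnn1g, a subunit of the epithelial sodium channel, had a log2 difference of 0.16 ± 0.23 (adjusted p = 0.637) against GnRH+eCG, and Scnm1 one of 0.03 ± 0.20 (adjusted p = 0.93).

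The CLC proteins tested, Clcn3 and Clcn5, both exchange chloride for protons in endosomes. Clcn5 had log2 signals of 7.76, 8.12 and 8.98 in the hCG group, 7.28, 7.42 and 7.94 in GnRH+eCG, 6.30, 7.38 and 7.72 in GnRH, and 7.36, 7.50 and 7.90 in control. The 3 lowest rats of the hCG group fall within the ranges of GnRH+eCG and control, and the other 3 lie above them. Its log2 difference was 0.67 ± 0.22 (SE; adjusted p = 0.0169), 1.59-fold higher, against GnRH+eCG, and 0.64 ± 0.22 (adjusted p = 0.0164), 1.56-fold higher, against control. Both calls ended without hCG rat 12 (adjusted p = 0.0535 and 0.0538) and under median scaling (log2 differences 0.36 and 0.30, adjusted p = 0.0819 and 0.114). Within rats 13 to 24 they were 0.27 (adjusted p = 0.55) and 0.41 (adjusted p = 0.309). Clcn3 was detected on all 24 arrays, with 8.57, 8.96 and 9.15 in the hCG group, 8.56, 8.73 and 8.88 in GnRH+eCG, 8.58, 8.76 and 8.93 in GnRH, and 8.83, 8.96 and 9.38 in control. Its log2 difference was 0.18 ± 0.11 (adjusted p = 0.194) against GnRH+eCG and -0.08 ± 0.11 (adjusted p = 0.576) against control, where the 95% interval runs from -0.30 to 0.15.

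Of the TRP channels, Trpv4, a calcium-permeable channel opened by cell swelling, warmth and lipids, had log2 signals of 7.90, 8.37 and 8.56 in the hCG group, 7.23, 8.42 and 8.55 in GnRH+eCG, 7.32, 7.51 and 8.57 in GnRH, and 6.66, 7.11 and 7.49 in control. The hCG group lay wholly above control and overlapped GnRH+eCG, in which 4 rats were near the hCG level and rats 8 and 21 near the control level. The log2 difference of the hCG group was 0.17 ± 0.25 (SE; adjusted p = 0.612) against GnRH+eCG, with a 95% interval of -0.33 to 0.68, and 1.21 ± 0.25 (adjusted p = 0.000299), 2.32-fold higher, against control. Trpv6, a calcium-selective epithelial channel, had a log2 difference of -0.06 ± 0.25 (adjusted p = 0.873) against GnRH+eCG, Trpv2 one of -0.18 ± 0.28 (adjusted p = 0.638) and Trpc4ap one of -0.06 ± 0.10 (adjusted p = 0.67). Trpc4ap was detected on all 24 arrays and its values lay between 7.45 and 8.15.

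Of the 16 channel genes not called against GnRH+eCG, 15 had a 95% interval within 2-fold either way, and the other, Kcns3, reached 1.01 on the log2 scale. Of the 14 not called against control, 13 did, and Kcnj3 reached 1.08. Some of these genes were detected in few rats. Cacna1g and Kcnq1 were each detected in 1 rat of the hCG group and 2 of GnRH+eCG, and Trpv2 in 1 and 3. For signals at background a narrow interval does not limit the change in the transcript. The same applies to the intervals given for the earlier hormone steps.

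**Figure D4:**
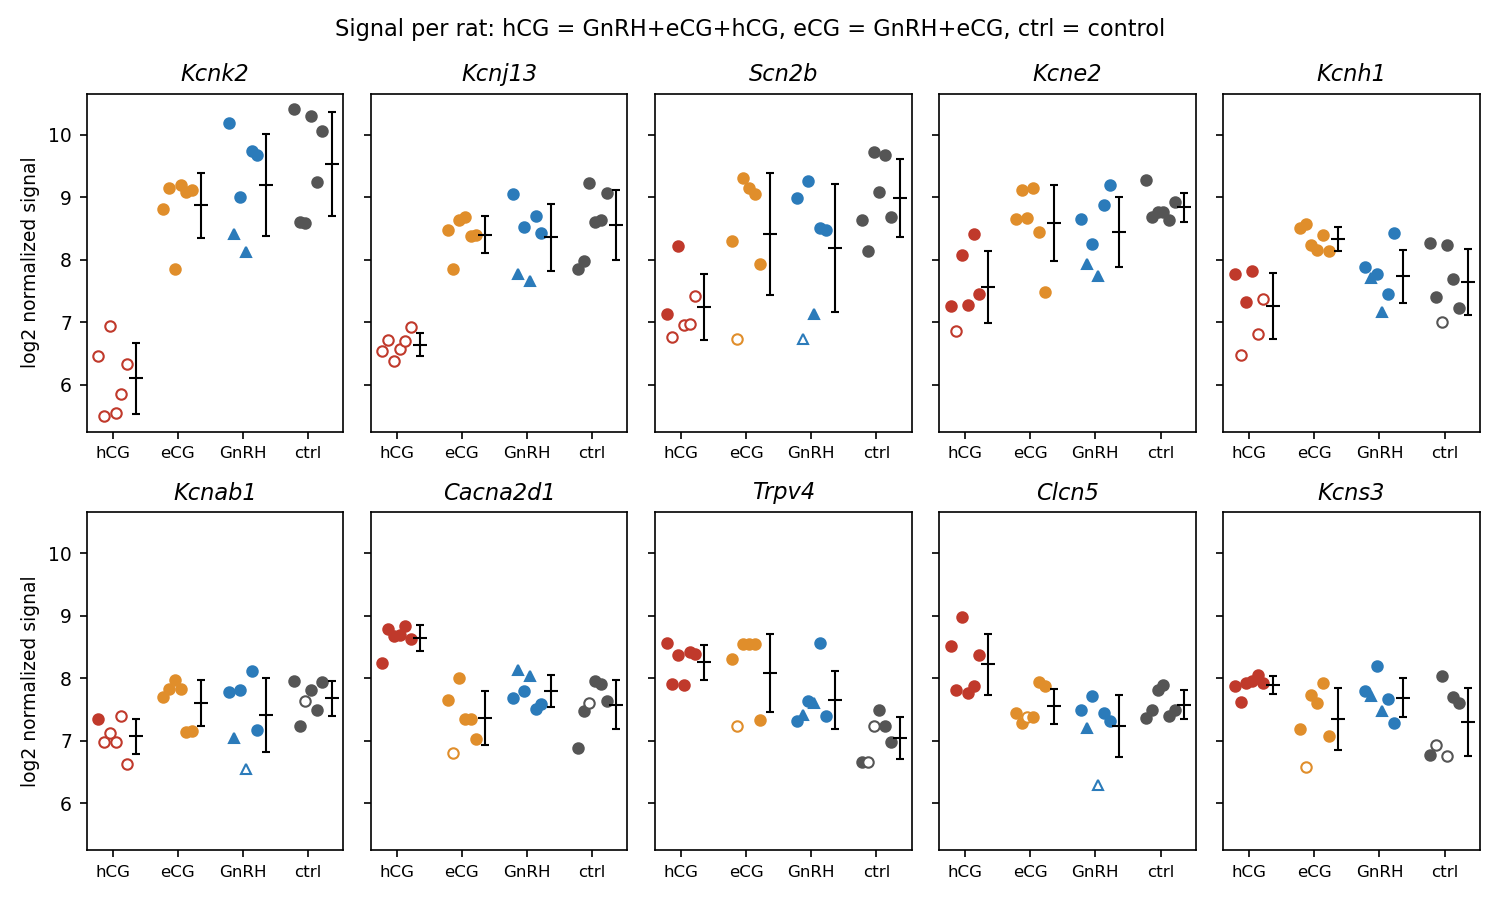
Log2 normalized signal of the 10 channel genes called in either comparison of the hCG group (1 point per rat, open when not detected; triangles are GnRH rats 5 and 16; bars are mean ± SD, n = 6). Kcnk2 and Kcnj13 have 6 open points each in the hCG group, below all other rats, and Trpv4 is lowest in control.

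The earlier hormone steps were compared in the same fit. For GnRH+eCG against GnRH, limma called 0 of 23 channel genes and 0% of all probes tested. At an unadjusted p under 0.05 there were 2 channel genes and 447 of the 8343 probes. The 5 channel genes of smallest p were Kcnh1 with a log2 difference of 0.60 ± 0.24 (SE; adjusted p = 0.835), Cacna2d1 with -0.43 ± 0.19 (adjusted p = 0.889), and Trpv4, Kcnj3 and Kcns3 with 0.42 ± 0.25, 0.42 ± 0.26 and -0.34 ± 0.23 (adjusted p = 0.993 each). All their ranges overlap. The 95% interval lay within 2-fold for 20 of the 23 and reached further for Kcnh1, Scn2b and Kcnk2. Within rats 13 to 24 the Kcns3 difference was 0.06, the opposite sign.

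For GnRH+eCG against control, 0 of 23 channel genes were called by limma, with 4 at an unadjusted p under 0.05, against 0.563% of all probes tested called and 1258 at an unadjusted p under 0.05. Trpv4 had a log2 difference of 1.04 ± 0.25 (SE; adjusted p = 0.0555), with a 95% interval of 0.53 to 1.55. It passed the threshold without GnRH+eCG rat 8 (log2 difference 1.21, adjusted p = 0.0119) or rat 21 (1.19, adjusted p = 0.0333), without GnRH rat 5 (adjusted p = 0.0476) or rat 17 (adjusted p = 0.0324), without GnRH rats 5 and 16 together (adjusted p = 0.0331), and with array weights, a robust variance model or 1 probe per gene (adjusted p = 0.00749, 0.0476 and 0.048). The next 4 by p were Kcnh1 with 0.70 ± 0.24 (adjusted p = 0.188), Clcn3 with -0.26 ± 0.11 (adjusted p = 0.268), Trpc4ap with 0.22 ± 0.10 (adjusted p = 0.302) and Kcnk2 with -0.66 ± 0.38 (adjusted p = 0.423). Intervals reached beyond 2-fold for Trpv4, Kcnh1, Scn2b and Kcnk2.

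For GnRH against control, limma again called 0 of 23 channel genes and 0% of all probes tested, with 1 channel gene and 945 probes at an unadjusted p under 0.05. Trpv4 had a log2 difference of 0.61 ± 0.25 (SE; adjusted p = 0.413), Clcn3 of -0.22 ± 0.11 (adjusted p = 0.439), Scn2b of -0.80 ± 0.44 (adjusted p = 0.473), Kcns3 of 0.39 ± 0.23 (adjusted p = 0.492) and Scnm1 of 0.31 ± 0.20 (adjusted p = 0.519). The interval lay within 2-fold for 20 of 23, with Trpv4, Scn2b and Kcnk2 beyond it. The comparisons with control share the 6 control arrays, so their estimates are not independent, and likewise those that share GnRH+eCG or GnRH arrays.

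GnRH rats 5 and 16 had the lowest pair of values in the GnRH group for 5 of the 6 channel genes that fell in the hCG group in either comparison. Kcnk2 was 8.41 in rat 5 and 8.12 in rat 16, and 9.01 to 10.18 in the other 4. Kcnj13 was 7.77 and 7.66 in these rats, Scn2b 6.74 and 7.13, Kcne2 7.94 and 7.74, and Kcnab1 7.05 and 6.55, while Kcnh1 was not lowest in both. Of the 4 genes that rose in the hCG group they had the highest pair for Cacna2d1, 8.14 and 8.04, and the lowest pair for Clcn5. Among the 13 channel genes with no call they had the lowest pair for 3 and the highest for 3. Rats 5 and 16 were picked by their place on the first principal component, which lies toward the hCG group. Low values of genes that fell in the hCG group were therefore favoured by the choice of rats. The share of all probes with this pattern was not counted, so it is not a result about channels. Without both rats, limma called 8 channel genes in the hCG group against GnRH+eCG (with Kcnab1 added as lower), 9 against control, 1 in GnRH+eCG against control (Trpv4) and 0 in the other 2 comparisons. The counts above 0 are, in that order, 34.8%, 39.1% and 4.35% of the channel genes, against 42.7%, 53.5% and 2.52% of all probes tested.

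Marker genes of the cells in a COC, and of cells that could be carried with it, moved between the groups as well. All 7 measured oocyte markers (of 13 listed; Mos and Kit were not detected) were lower in the hCG group than in GnRH+eCG, with a median log2 difference of -1.37 (-1.30 with Nlrp5, detected in 0 rats of the hCG group, at its bound), and their summed log2 signal was 10.93 to 11.54 in the hCG group, 11.76 to 13.67 in GnRH+eCG, 11.73 to 12.88 in GnRH and 11.99 to 13.55 in control. Of 9 granulosa and cumulus markers measured, 1 was higher and 5 lower, or 66.7%, against 40.1% of all probes tested. Their sums were 14.03 to 14.68 in the hCG group and 14.30 to 14.98 in GnRH+eCG. Of 4 neuron markers measured, Nefl, Nefm and Snap25 were higher, with sums of 11.57 to 12.41 in the hCG group, 8.16 to 8.67 in GnRH+eCG, 8.04 to 10.58 in GnRH and 7.79 to 8.17 in control, while Syt1 was not detected and Tubb3 had a log2 difference of 0.52 ± 0.34 (SE; adjusted p = 0.237). Nefl was detected in 6 rats of the hCG group and Nefm in 4, both in 0 of the 18 other rats, and Snap25 in 6 of the hCG group and 3 others, so these genes passed the detection minimum through the hCG group and the sums of the other groups rest mostly on background. Of 2 smooth muscle markers measured, Myocd was lower by a log2 difference of -2.0 ± 0.26 (SE; adjusted p = 3.85e-06), and Des had 0.26 ± 0.22 (adjusted p = 0.391), with Cnn1 and Tagln not detected. The sums, in which Myocd has the higher signal, were 8.50 to 9.31 in the hCG group, 10.08 to 11.14 in GnRH+eCG, 10.21 to 11.65 in GnRH and 10.88 to 11.70 in control.

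Markers of theca and stroma (7 measured) included 1 lower than in GnRH+eCG and, against control, 4 higher and 1 lower. That is 14.3% and 71.4%, against 40.1% and 51.8% of all probes tested. The sums were 11.89 to 12.79 in the hCG group and 11.32 to 11.74 in control. Of the 4 higher, Col1a1 was detected in 4 control rats, Col1a2 in 2, Col3a1 in 1 and Lum in 0. Those control levels rest partly or wholly on background. The list median against control was 1.84, or 1.21 with genes detected in 0 rats of one group at their bound. Of 3 leukocyte markers measured, 1 was higher than in GnRH+eCG and 2 higher than in control, and Ptprc, the marker common to leukocytes, was not detected. Cd14, higher in both comparisons, was detected in 6 rats of the hCG group, 2 of GnRH+eCG and 0 of GnRH or control. It passed the detection minimum through the hCG group. Cd74, higher than in control only, was detected in 1 control rat. Erythrocyte markers (2 measured) had 0 calls against GnRH+eCG and 2 higher than in control. Endothelial markers (2 measured) had Emcn higher and Tek at 0.57 ± 0.41 (SE; adjusted p = 0.285), with Cdh5 and Vwf not detected. Emcn was detected in 4 rats of the hCG group, 1 of GnRH and 0 of GnRH+eCG or control. It passed the detection minimum mainly through the hCG group. Oviduct epithelial markers (3 measured) had 2 lower, Cdh1 and Epcam, with Krt8 at a log2 difference of 0.37 ± 0.66 (SE; adjusted p = 0.695). Krt7 and Pax8 were not detected. Cdh1 was detected in 0 rats of the hCG group and 2 of GnRH+eCG, and Epcam in 1 and 3. Both calls rest largely on signals at background. Their list median was -1.13, or 0.0 with Cdh1 at its bound. The part of these cell types in the channel differences was not tested.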

How the data were processed

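Signals are the intensity values deposited by the authors, 1 per probe and array on a linear scale, summarised with BeadStudio per the submitters' processing notes (version not given in the sources used here). Beside each signal the authors deposited a detection value, a fraction between 0 and 1. Per the file headers it is a p-value, yet it rose with signal on each of the 24 arrays (lowest Spearman rho 0.994), so it was taken here as 1 minus the detection p and is called the score. Of 22226 probes, 280, a second Kcnc2 probe among them, had no matching identifier between the deposited tables and were left out, so 21946 were used. The 24 signal columns of the table that holds the detection values were not used, since the other deposited table gives a signal for each array.

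Gene symbols came from the array platform annotation, which can be old: 13599 probes have 1 symbol, 0 several and 8627 none. All 140 channel probes matched a gene of RefSeq GRCr8 by identifier, with 0 symbols changed. Each tested channel gene has 1 probe, and signals of different probes are not compared.

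Background correction (normexp, with the background taken from detection p) and quantile normalization used the neqc function of limma 3.58.1 (R 4.3.3) at an offset of 16. The 8343 probes with a score over 0.99 on at least 4 arrays were tested. The fit (lmFit, then eBayes) took the 24 arrays together with a mean for each group and 20 residual degrees of freedom. Adjusted p-values are Benjamini-Hochberg values over the 8343 probes in each of 5 comparisons, and a difference was called under 0.05. Where a group has no detected array for a probe, its level is a bound, from the higher of its own and the lowest detected signal on each array. The number of arrays limits the precision. The fit was tested on simulated data with known changes.

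Channel genes past the threshold in any comparison, the 10 of highest mean signal, those detected in at least 5 rats of one group and 0 of another, and the 5 of smallest p where fewer than 5 passed are named by rule, and the other tested channel genes are named to account for every one tested. Members, lists, tests and the naming rule were chosen with earlier results of these data known. Alternatives covered normalization, offset, filter, threshold, variance model, array weights, samples in the fit, rats 1 to 12 against rats 13 to 24, GnRH rats 5 and 16, 1 probe per gene and leaving out each array. Slide and scan date were not used here.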

Additional observations from a re-analysis of the deposited data

Results flagged for a closer look

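Single rats lay far from the other 5 of their group (the gap to the next rat, as a share of the group's range, above Dixon's critical value) in 9 of the 92 combinations of gene and group, where chance gives about 1 in 20. Control rat 1 had the highest control signal for Clcn3 (log2 9.38, next 9.00) and Trpv2 (8.66, next 7.03) and the lowest for Scnm1 (7.48, next 8.19). GnRH+eCG rat 8 was lowest for Scnm1 (7.40, next 8.2) and Kcnj13 (7.85, next 8.38), and GnRH+eCG rat 9 was lowest for Kcnk2 (7.85, next 8.81). GnRH rat 17 was highest for Trpv4 (8.57, next 7.64) and GnRH rat 16 lowest for Clcn5 (6.30, next 7.2). Among the hCG group, rat 10 was lowest for Cacna2d1 (8.24, next 8.62), still above every rat of the other groups.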

How the results depend on the processing

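The difference of Kcnk2, Kcnj13 and Cacna2d1 in both comparisons of the hCG group, and of Trpv4 against control, kept direction and side of the threshold in 14 alternatives and in 24 runs without 1 array. Over all gene differences, 1127 of 1178 runs kept both, 42 lost the call and 1 changed sign: Kcns3 in GnRH+eCG against GnRH within rats 13 to 24 (0.06). In the remaining runs Trpv4 gained a call in GnRH+eCG against control. The total includes genes not called in the main fit, for which keeping both means staying uncalled. All lost calls fell among the genes called in the hCG comparisons. The hCG group against GnRH+eCG had 4 to 10 channel calls across alternatives and 6 to 8 without 1 array. Within rats 13 to 24 (3 rats a group) there were 4, or 17.4%, against 20.1% of all probes tested. Within rats 1 to 12 there were 6, or 26.1%, against 12.3%, so there the channel share was above that of all probes tested. With no detection minimum there were 10 of 139 probes, or 7.19%, against 16.3% of all, with 6 higher and 4 lower and 6 of the 7 among them. Against control it had 6 to 18, with 18 of 139 probes, or 12.9%, against 24.1% of all where no detection minimum was set (10 higher and 8 lower, 8 of the 9 among them), and 7 to 10 without 1 array. Within rats 1 to 12 this comparison with control had 6, or 26.1%, against 19.8% of all. Within rats 13 to 24 it also had 6, or 26.1%, against 38.4% of all. Calls were added against GnRH+eCG for Kcnab1 and Kcns3 with array weights and with only the 2 groups in the fit, and against control for Kcnj3 with array weights and with the block of rats 1 to 12 against rats 13 to 24. GnRH+eCG against control had 1 call, Trpv4, under a variance model with intensity trend and robust estimation, under array weights, without GnRH rats 5 and 16 and with 1 probe per gene, and 0 to 1 without 1 array. A single call is 4.35% of the channel genes. Of all probes tested, 0.599%, 5.18%, 2.52% and 0.675% were called under those settings, in that order. The weight of hCG rat 24 was 12.4, against 1.8 for the next. In GnRH+eCG against GnRH and GnRH against control 0 channel genes were called in any run. Apart from the values given, the cause of these changes was not tested. The alternative of quantile normalized series values is the same run as quantile normalization without background correction, since those values are the signals used. No paired analysis was possible because no rat number occurs in more than 1 group. Most channel probes lay at background, where a difference cannot be measured.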

Other observations

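Other ion transport genes, from a list of 88 pumps, exchangers, store release channels and gap junction proteins, were on the array for 62 and measured for 30. In the hCG group against GnRH+eCG 4 rose and 9 fell (43.3% called, against 40.1% of all probes tested), and against control 7 rose and 11 fell (60%, against 51.8%). The median log2 difference was -0.20 and -0.11, or -0.12 and -0.10 with genes detected in 0 rats of one group at their bound, with 0 calls by limma in the other 3 comparisons. Atp2b1, a plasma membrane calcium pump, averaged 11.57 ± 0.08 in the hCG group and 10.74 ± 0.20 in GnRH+eCG (log2 signal, SD, n = 6 each; adjusted p = 2.57e-05). Its relative Atp2b4 was lower in the hCG group (adjusted p = 0.000137), where it was detected in 0 of 6 rats, against 3 of 6 in GnRH+eCG; its level there is a bound and no fold is given. Clic5, a chloride intracellular channel protein, averaged 10.50 ± 0.31 in the hCG group, 7.55 ± 1.25 in GnRH+eCG, 6.67 ± 1.02 in GnRH and 6.00 ± 0.56 in control, with a log2 difference of 2.94 ± 0.47 (SE; adjusted p = 4.73e-05) against GnRH+eCG. It was detected in 6 rats of the hCG group, 4 of GnRH+eCG, 2 of GnRH and 0 of control. The GnRH mean is therefore mostly, and the control mean wholly, of signals not above background. Gja4, an oocyte gap junction protein, fell by 1.52 on the log2 scale (SE 0.35; adjusted p = 0.00175). Gja4 was detected in 3 rats of the hCG group and in all 18 others, so its hCG mean is partly of signals not above background.

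Signal genes that act on channels were measured for 24 of 40 listed. Against GnRH+eCG, 6 rose and 3 fell in the hCG group (37.5%, against 40.1% of all probes tested; median log2 difference 0.01), and against control 6 rose and 5 fell (45.8%, against 51.8%; median -0.01). Prkca, a calcium-dependent protein kinase, had a log2 difference of 1.89 ± 0.25 (SE; adjusted p = 5.97e-06) and was detected in 6 rats of the hCG group, 1 of GnRH+eCG, 1 of GnRH and 0 of control, so it passed the detection minimum through the hCG group and is set against signals mostly at background. Camk2g, a calmodulin-dependent kinase, had -1.20 ± 0.21 (adjusted p = 0.000135), Prkar1a, a regulatory subunit of cAMP-dependent protein kinase, 0.77 ± 0.15 (adjusted p = 0.000271), and Plcg1, a phospholipase that leads to calcium release, -0.44 ± 0.09 (adjusted p = 0.000476). Camk2g was detected in 2 rats of the hCG group and in all 18 others, so its hCG mean is mostly of signals not above background.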
